A study of Homo sapiens with 17 samples.

Results

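The genes described here are 8 genes for replacement histones, which are also made outside S phase, *H3-3A*, *H3-3B*, *H2AZ1*, *H2AZ2*, *H2AX*, *MACROH2A1*, *MACROH2A2* and *H1-10*. They were chosen by name, and all 8 were found among the 60664 genes of the table. RNA-Seq was carried out in SF8628, an established cell line derived from a diffuse midline glioma (DMG) that carries the histone H3.3 K27M mutation and was grown as a monolayer. Cells received the vehicle DMSO or 1 μM AZD5153, a small-molecule inhibitor of the BET bromodomain proteins, for 24 or 48 h. Each of these 4 groups had 3 replicate libraries, which makes 12 in all. All groups share the K27M background and come from a single line, and gene counts do not separate mutant from wild-type transcripts. Values are normalized counts, that is, reads per gene divided by a size factor for each library, and mean ± SD (n = 3) unless stated.

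Nucleosomes built during DNA replication use histones from clustered genes that lack introns and are transcribed mostly in S phase. Replacement histones are made throughout the cell cycle and are placed into chromatin by dedicated chaperones, so they fill nucleosomes that are opened by transcription or repair. H3.3 is deposited by the HIRA complex in active genes and by ATRX and DAXX at repeats and telomeres. H2A.Z marks promoters and enhancers, H2AX is phosphorylated around DNA double-strand breaks, macroH2A carries a large globular domain and is abundant in silent chromatin, and H1-10 is a linker histone that binds DNA between nucleosomes. In DMG, the K27M substitution in H3.3 or H3.1 lowers the repressive methylation of the same lysine across the genome.

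Libraries held 15759148 to 27335220 reads on genes. The first DMSO replicate at 24 h stood apart from its group. On the second principal component it lay at 44.6, against 17.4 and 16.6 for the other replicates, and across 15577 genes its deviation from these replicates correlated with transcript GC content at Pearson's r = −0.435. The results that this library moved most are given with and without it. Of 12 glial and glioma markers, 8 averaged 10 or more normalized counts, but the oligodendrocyte lineage genes *OLIG1* and *OLIG2* were at 0 in all libraries. All 7 fibroblast and pericyte markers reached that mean, and their summed normalized counts ranged from 61245 to 88354 in the DMSO libraries and from 19331 to 25612 in the AZD5153 libraries. Of 5 endothelial markers 4 reached that mean, *CDH5* was at 0, and the sum ranged from 365.5 to 697.7 in DMSO and from 64.2 to 100.6 in AZD5153. Of 7 myeloid markers 2 reached it, *AIF1* and *TYROBP* were at 0, and the sum ranged from 182.6 to 228.5 in DMSO and from 34.6 to 59.8 in AZD5153. Of 6 neuron markers 2 reached it, *STMN2* was at 0, and the sum ranged from 702.5 to 885.6 in DMSO and from 753.6 to 925.8 in AZD5153. The myeloid and neuron sums come mainly from single genes, *CSF1R* with a mean of 112.2 and *SYT1* with a mean of 774.6. The summed glial and glioma markers ranged from 24807 to 39336 in DMSO and from 23009 to 28784 in AZD5153. The part of these genes in the results below was not tested.

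At 24 h, the limma test (adjusted p under 0.05 over 15599 genes tested) called all 8 histone genes, 4 of them higher and 4 lower with AZD5153, where 68.5% of all genes tested were called, 33.9% higher and 34.6% lower. At 48 h it called 6 of 8, 4 higher and 2 lower, where 67% of all genes were called, 33.1% higher and 33.9% lower. The higher genes at both times were *H3-3A*, *H3-3B*, *H2AX* and *H1-10*. The lower genes were *H2AZ1* and *MACROH2A2* at both times and *H2AZ2* and *MACROH2A1* at 24 h. Counts this close to the background say little by themselves, so levels and sizes are given gene by gene. The median log2 fold change of the 8 genes was 0.18 at 24 h and 0.42 at 48 h, beside 0.000 and 0.001 over all genes tested. Each median fell in a gap, between *H2AZ2* (−0.31) and *H2AX* (0.66) at 24 h and between *MACROH2A1* (0.07) and *H1-10* (0.77) at 48 h. It thus does not describe a shift of the genes as a set. Reads reflect the share of each transcript in a library, so fewer cells that express a gene and less of its RNA per cell cannot be told apart.

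**Figure D1:**
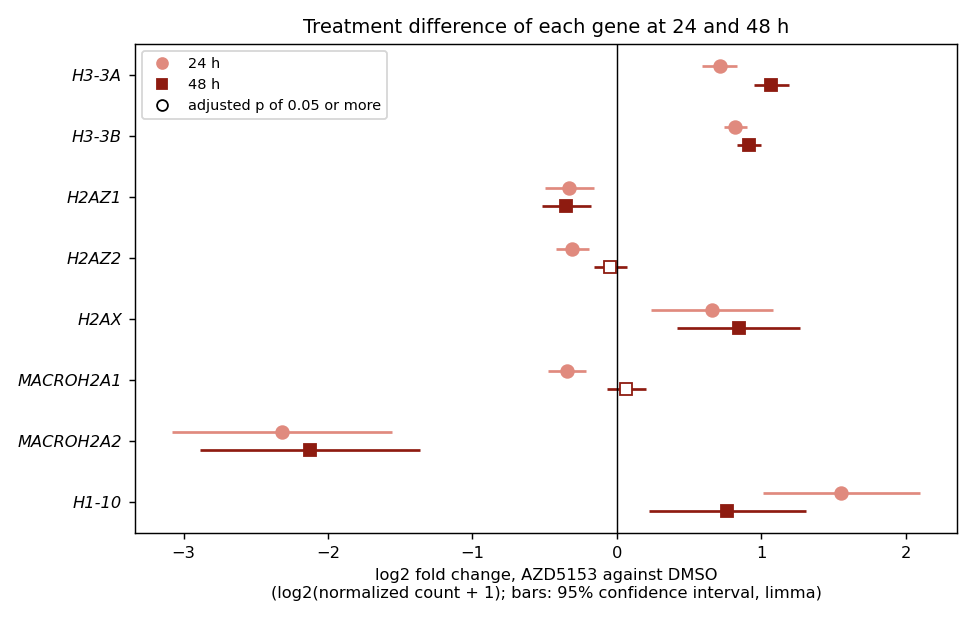
Log2 fold change of AZD5153 against DMSO for each of the 8 genes at 24 h (circles) and 48 h (squares), with 95% confidence intervals from limma; open symbols did not pass the test. The intervals of *H3-3A* and *H3-3B* lie between 0.59 and 1.19, and those of *MACROH2A2* below −1.36.

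The start-site regions of the genes that rose and of *H2AZ1* are shown because they differ in how many CCAAT and TATAAA matches they hold. RefSeq promoter windows on GRCh38.p14 were matched for all 8 genes, and each start was that of the canonical transcript. The sequences cover 240 bases that end 11 bases before the start, 5′ to 3′ on the strand of the gene, with CCAAT (or ATTGG, its reverse complement) and TATAAA in capitals. They lie at chr1:226062466-226062705, plus strand for *H3-3A*, at chr17:75779790-75780029, minus strand for *H3-3B*, at chr4:99950286-99950525, minus strand for *H2AZ1*, at chr11:119095476-119095715, minus strand for *H2AX*, and at chr3:129316297-129316536, minus strand for *H1-10*.
H3-3A: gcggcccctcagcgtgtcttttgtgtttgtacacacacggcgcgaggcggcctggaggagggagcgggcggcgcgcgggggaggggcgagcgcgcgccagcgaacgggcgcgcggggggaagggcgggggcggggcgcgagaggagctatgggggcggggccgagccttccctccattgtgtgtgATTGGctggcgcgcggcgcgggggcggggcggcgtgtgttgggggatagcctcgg
H3-3B: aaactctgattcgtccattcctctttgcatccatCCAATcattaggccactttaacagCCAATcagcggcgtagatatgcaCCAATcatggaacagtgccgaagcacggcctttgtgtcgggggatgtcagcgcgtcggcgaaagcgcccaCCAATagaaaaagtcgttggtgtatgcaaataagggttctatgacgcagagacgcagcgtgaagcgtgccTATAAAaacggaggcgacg
H2AZ1: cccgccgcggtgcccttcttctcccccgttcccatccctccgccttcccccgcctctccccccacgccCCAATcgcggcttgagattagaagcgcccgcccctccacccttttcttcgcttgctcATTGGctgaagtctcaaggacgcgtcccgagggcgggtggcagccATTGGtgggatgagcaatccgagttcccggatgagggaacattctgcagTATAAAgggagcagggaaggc
H2AX: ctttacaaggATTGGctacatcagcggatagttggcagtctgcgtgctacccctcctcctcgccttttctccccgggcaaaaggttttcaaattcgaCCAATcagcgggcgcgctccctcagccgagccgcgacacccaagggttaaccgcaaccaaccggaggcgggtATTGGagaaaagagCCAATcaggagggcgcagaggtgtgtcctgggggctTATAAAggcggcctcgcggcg
H1-10: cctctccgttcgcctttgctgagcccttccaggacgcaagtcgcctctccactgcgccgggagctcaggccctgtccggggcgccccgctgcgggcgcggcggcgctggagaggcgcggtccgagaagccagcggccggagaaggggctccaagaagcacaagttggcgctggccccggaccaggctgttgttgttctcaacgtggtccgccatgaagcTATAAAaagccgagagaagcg

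CCAAT, the letters bound by the factor NF-Y, occurred on either strand within 250 bases before the start in 5 of 8 genes, against 32.0% of 35116 windows in the table. *H3-3B*, *H2AZ2* and *H2AX* held 4 each, *H2AZ1* held 3 and *H3-3A* held 1, where 2.93% of all windows held at least 3. TATAAA occurred in 4 of 8 genes against 10.7% of all windows, at 29 bases before the start in *H3-3B* and at 31 bases in *H2AZ1*, *H2AX* and *H1-10*. *MACROH2A1* and *MACROH2A2* held neither. TTTGAA, the cell cycle homology element, was found in *H2AX* alone (13.3% of all windows), and the E-box CACGTG (6.34%) and the E2F motifs TTTGGCGC (0.55%) and TTTCCCGC (1.39%) in none of the 8. All were searched on both strands, and no match overlapped another. TATAAA was present in a gene that fell, *H2AZ1*, and absent from a gene that rose, *H3-3A*. A match describes these letters only.

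*H3-3A* and *H3-3B* encode the same H3.3 protein from unlike transcripts, and both rose with AZD5153. *H3-3A* (ENSG00000163041) lies at chr1:226061851-226072019 on the plus strand of hg38. At 24 h it had normalized counts of 4438, 3837 and 3924 in the DMSO libraries and 6882, 6629.6 and 6471 in the AZD5153 libraries. By 48 h the counts were 3475, 3415 and 3181 in DMSO and 7174, 6883 and 7026 in AZD5153. Every AZD5153 library was above every DMSO library, and the groups did not overlap at either time, as was the case for 68.8% of all genes tested at 24 h and 74.7% at 48 h. The log2 fold change was 0.71 (SE 0.057, adjusted p = 1.5e-08) at 24 h and 1.07 (SE 0.057, adjusted p = 1.2e-10) at 48 h. These correspond to 1.64-fold and 2.09-fold higher levels.

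*H3-3B* (ENSG00000132475, chr17:75776434-75785893, minus strand) had the most reads of the 8 genes. At 24 h the DMSO libraries had normalized counts of 17277, 16679.9 and 16993, and the AZD5153 libraries had 30123, 30395 and 29301. At 48 h the DMSO libraries had 12810.3, 13154 and 13640.4, and the AZD5153 libraries had 25313, 24481 and 24929. The groups were far apart at both times, with replicate SDs of no more than 569.8. The log2 fold change was 0.82 (SE 0.039, adjusted p = 3.1e-11) at 24 h and 0.92 (SE 0.039, adjusted p = 8.7e-12) at 48 h. Quantile normalization gave 0.46 and 0.61, still past the threshold.

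The increase of *H3-3A* was larger at 48 h than at 24 h by 0.35 on the log2 scale (SE 0.080, adjusted p = 0.0049 for the treatment by time term of limma), where this term was called for 24.5% of all genes and was above 0 in 14.4%. For *H3-3B* the same term was 0.10 (95% confidence interval −0.02 to 0.21) and was not called. The larger increase of *H3-3A* coincided with a fall in DMSO, since its level was lower at 48 h than at 24 h in DMSO (−0.27, adjusted p = 0.0014) and its change in AZD5153 was 0.08 (adjusted p = 0.33). *H3-3B* fell with time in both, by 0.36 in DMSO (adjusted p = 5e-06) and by 0.27 in AZD5153 (adjusted p = 9.6e-05).

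Per kilobase of the Ensembl canonical transcript (1070 bases for *H3-3A* and 2705 bases for *H3-3B*), *H3-3B* supplied 62.3% ± 1.48 of the H3.3 transcript level in DMSO at 24 h and 64.0% ± 0.554 in AZD5153. At 48 h its share was 60.9% ± 1.85 in DMSO and 58.4% ± 0.0997 in AZD5153. The share of the DMSO and AZD5153 libraries overlapped at neither time, with 60.6% to 63.2% against 63.4% to 64.5% at 24 h and 59.3% to 62.9% against 58.3% to 58.5% at 48 h, and the direction of the difference was opposite at the 2 times. Without the first DMSO replicate at 24 h (60.6%), the DMSO share at that time was 63.2% (2 libraries). The shares depend on the transcript model, and per kilobase of all annotated exons they were 72.3% in DMSO and 73.7% in AZD5153 at 24 h and 71.0% and 68.9% at 48 h, with the same directions. They also leave out reads assigned to *H3P6*, a pseudogene described below. Adding these reads to *H3-3A* would lower every share of *H3-3B*, and shares with them were not computed. The log2 ratio of *H3-3B* to *H3-3A* was 0.10 higher with AZD5153 at 24 h and differed by −0.15 at 48 h. The mean of these differences, −0.02, did not pass an exact two-sided permutation test of the libraries within each time (p = 0.695, 400 arrangements), which was run for 3 gene pairs and has a smallest possible p of 0.005. A mean over opposite differences does not test either time by itself.

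The genes for the replication-dependent H3 proteins gave few reads in these libraries. The summed normalized count of 13 *H3C* genes was 72.6 ± 21.1 in DMSO and 487 ± 26.3 in AZD5153 at 24 h, and 100.3 ± 16.3 and 473 ± 10.2 at 48 h. *H3-3A* and *H3-3B* together made up 99.7% and 98.7% of the H3 counts at 24 h and 99.4% and 98.5% at 48 h. The sources do not state whether RNA was selected by poly(A) tail, and most replication-dependent histone messages end in a stem-loop instead, so these shares describe the libraries only.

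Processed copies of H3.3 genes could take reads from them. Of 47 listed H3 pseudogenes, 3 averaged 10 or more normalized counts, and all pseudogenes of this family held 2.68% to 5.42% of the H3.3 family counts in a library. The family counts are mostly those of *H3-3B*. The most abundant, *H3P6*, had a mean of 857 and an annotated transcript of 411 bases that matched the *H3-3A* transcript with 0 mismatches, so reads of the 2 cannot be told apart along it. Set against *H3-3A* alone, the mean of *H3P6* was 811 against 4066 in DMSO and 999.7 against 6661 in AZD5153 at 24 h. At 48 h the means were 531 against 3357 in DMSO and 1087 against 7028 in AZD5153. *H3P6* had a log2 fold change of 0.36 at 24 h (adjusted p = 0.067, not called) and rose by 1.04 at 48 h (adjusted p = 5e-05). With its reads added to *H3-3A*, an alternative chosen after seeing the data, *H3-3A* was higher by 0.66 at 24 h and 1.06 at 48 h.

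**Figure D2:**
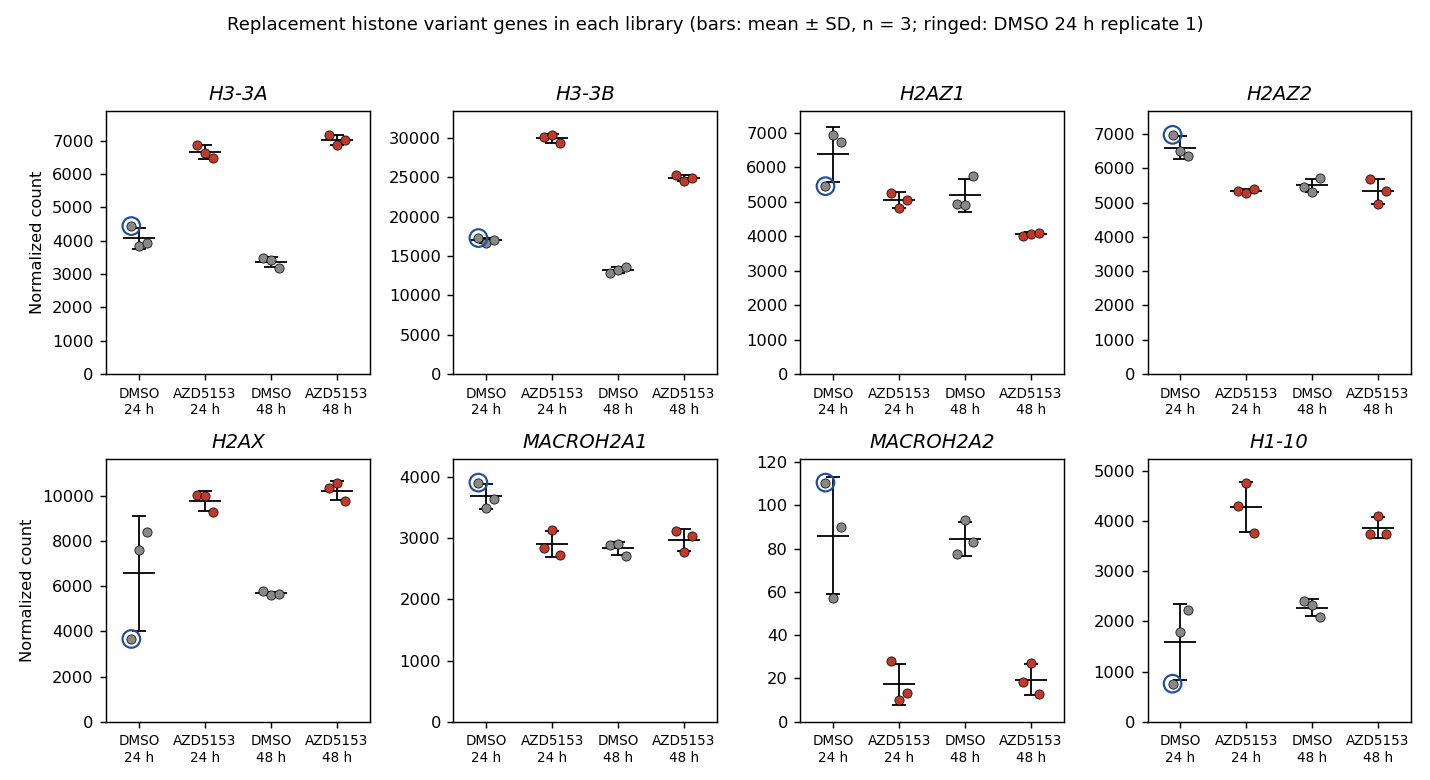
Normalized count of each gene (vertical axis, starting at 0) in each of the 12 libraries by group, with mean ± SD of 3 replicates; gray points are DMSO, red points are AZD5153, and the ring marks the first DMSO replicate at 24 h. The red points lie above all gray points of the same time for *H3-3A*, *H3-3B*, *H2AX* and *H1-10* and below them for *H2AZ1* and *MACROH2A2*, and the ringed library is the lowest of its group for *H2AX* (3665) and *H1-10* (759).

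The H2A.Z genes moved by less. *H2AZ1* (ENSG00000164032, chr4:99948086-99950355, minus strand) encodes H2A.Z.1 and fell from 6371 ± 806 normalized counts in DMSO to 5041 ± 226 in AZD5153 at 24 h, and from 5189 ± 479 to 4059 ± 48.3 at 48 h. The DMSO libraries ranged from 5449 to 6938 and the AZD5153 libraries from 4809 to 5261 at 24 h, and from 4893 to 5742 and 4007 to 4102 at 48 h, without overlap at either time. The log2 fold change was −0.33 at 24 h (SE 0.080, adjusted p = 0.0018) and −0.35 at 48 h (SE 0.080, adjusted p = 0.0011). These effects differed by −0.02 (95% confidence interval −0.26 to 0.22), which was not called.

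*H2AZ2* (ENSG00000105968, chr7:44826791-44848087, minus strand), which encodes H2A.Z.2, had 6978, 6494 and 6349 normalized counts in DMSO and 5340.3, 5275 and 5393 in AZD5153 at 24 h. It fell from 6607 ± 329 to 5336 ± 59.0 (log2 fold change −0.31, SE 0.054, adjusted p = 0.00012). At 48 h it had 5464, 5324 and 5713 in DMSO and 5687, 4951 and 5352 in AZD5153. These groups overlapped, and the log2 fold change was −0.05 (95% confidence interval −0.16 to 0.07, adjusted p = 0.46). The effect at 48 h exceeded that at 24 h by 0.26 (adjusted p = 0.022 for the treatment by time term). That call was lost in 9 of 25 alternatives, 5 of which left out a single library (DMSO replicate 1 or 2 at 48 h, AZD5153 replicate 2 at 24 h, or AZD5153 replicate 1 or 3 at 48 h), with values of 0.21 to 0.31 over all libraries left out in turn. Scaling to equal totals and quantile normalization placed *H2AZ2* lower at 48 h too, by −0.219 and −0.222.

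H2A.Z transcripts came mainly from *H2AZ1* when length was taken into account. Per kilobase of canonical transcript, *H2AZ2* supplied 23.1% ± 3.25 in DMSO and 23.3% ± 0.700 in AZD5153 at 24 h. The first DMSO replicate had 26.8% and the other 2 had 21.1% and 21.3%, a mean of 21.2%, so without it every AZD5153 library at 24 h (22.5% to 23.9%) was above DMSO. At 48 h it supplied 23.3% ± 1.02 in DMSO and 27.3% ± 1.53 in AZD5153, and the 3 AZD5153 libraries (25.8% to 28.9%) were above the 3 DMSO libraries (22.2% to 24.1%). With all libraries, the log2 ratio of *H2AZ2* to *H2AZ1* differed between AZD5153 and DMSO by 0.16 in the mean of both times, which did not pass the same exact permutation test (p = 0.115). A divergent noncoding gene, *H2AZ1-DT*, overlaps 9.82% of the *H2AZ1* exon bases on the opposite strand. Its mean normalized counts were 6.15 in DMSO and 25.5 in AZD5153 at 24 h, and 5.95 and 47.8 at 48 h. Both DMSO means were under 10, so *H2AZ1-DT* passed the minimum mean only through AZD5153 and had to be higher there. No fold change is given for it. The strand setting of the counting was not given in the sources used here, so reads of these overlapping genes cannot be told apart. The same holds for *UNK*, which shares 2.92% of the *H3-3B* exon bases on the opposite strand and fell by 0.81 and 1.11, and for *PITX1-AS1*, which shares 27.7% of those of *MACROH2A1* with a mean of 9.64 normalized counts.

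*H2AX* (ENSG00000188486, chr11:119093874-119095465, minus strand), the variant that is phosphorylated at DNA breaks, rose at both times. Its gene makes a message that ends in a stem-loop in S phase as well as a polyadenylated one, so the share of *H2AX* RNA that was captured depends on the unstated RNA selection too. At 24 h it had normalized counts of 3665, 7620.4 and 8414 in DMSO and 10042, 9999 and 9270.4 in AZD5153. The 48-h counts were 5776, 5630.3 and 5669.8 in DMSO and 10373, 10592 and 9758 in AZD5153. All AZD5153 libraries were above all DMSO libraries, and the first DMSO replicate at 24 h was far below its group. The log2 fold change was 0.66 at 24 h (SE 0.198, adjusted p = 0.0077) and 0.85 at 48 h (SE 0.198, adjusted p = 0.0014). Without that library the 24-h value was 0.29 (adjusted p = 6.9e-06), the effect at 48 h exceeded it by 0.56 (adjusted p = 1.9e-07) instead of 0.185 (not called), and the change with time in DMSO was −0.49 (adjusted p = 7.5e-09) instead of −0.12 (not called).

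*H1-10* (ENSG00000184897, chr3:129314771-129316286, minus strand, 1 exon) had the largest increase of the 8 at 24 h. Its normalized counts were 759, 1791 and 2237 in DMSO and 4304, 4770.3 and 3769.8 in AZD5153 at 24 h. At 48 h they were 2410.4, 2329 and 2093 in DMSO and 3739, 4111 and 3753 in AZD5153. The groups did not overlap at either time, and the first DMSO replicate at 24 h was again the lowest. The log2 fold change was 1.56 at 24 h (SE 0.254, adjusted p = 5.3e-05) and 0.77 at 48 h (SE 0.254, adjusted p = 0.015). Without the first DMSO replicate at 24 h the 24-h value was 1.09 (adjusted p = 5.3e-12), and the effect at 48 h differed from that at 24 h by −0.33 (adjusted p = 0.027), whereas with all libraries this term was −0.79 (adjusted p = 0.12). Without DMSO replicate 3 at 48 h the 48-h value was 0.71 and no longer passed (adjusted p = 0.053), and it did not pass without the variance trend either (adjusted p = 0.058).

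*H2AX* and *H1-10* had the most GC-rich canonical transcripts of the 8 genes, at 66.8% and 68.6%, against 42.8% to 52.9% for the others. In the first DMSO replicate at 24 h, 2194 genes with a GC content of at least 60% had a median deviation of −0.48 on the log2 scale from the other replicates, and 2674 genes under 40% had one of 0.18. With the GC trend of each library removed, an alternative chosen after seeing the data, *H2AX* was higher by 0.42 at 24 h and 0.99 at 48 h, and *H1-10* by 1.28 and 0.92. All 4 values passed the test (highest adjusted p = 2.1e-05). Across the 12 libraries the log2 levels of *H2AX* and *H1-10* had Pearson's r = 0.90, and r = 0.98 for deviations from the group means, as a description of libraries that share treatment, time and GC trend. The noncoding *H1-10-AS1* overlaps 22.8% of the *H1-10* exon bases on the opposite strand. Its normalized counts were 77.6 ± 4.73 in DMSO and 5.19 ± 1.02 in AZD5153 at 24 h, and 71.3 ± 12.7 and 8.73 ± 7.31 at 48 h. Both AZD5153 means were under 10, so *H1-10-AS1* passed the minimum mean only through DMSO and had to be lower in AZD5153. No fold change is given for it.

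The macroH2A genes differed in level and in response. *MACROH2A1* (ENSG00000113648, chr5:135334381-135399914, minus strand) had normalized counts of 3911, 3493 and 3651 in DMSO and 2845, 3142 and 2727 in AZD5153 at 24 h, a log2 fold change of −0.34 (SE 0.064, adjusted p = 0.00019). The 48-h counts were 2898, 2901 and 2714 in DMSO and 3112, 2775 and 3032 in AZD5153. The groups overlapped at 48 h, and the log2 fold change was 0.07 (95% confidence interval −0.07 to 0.20, adjusted p = 0.38), with a negative sign under equal totals and quantile normalization. The 2 effects differed by 0.41 (SE 0.091, adjusted p = 0.0042). In DMSO the gene fell with time by 0.38 (adjusted p = 0.00033), and in AZD5153 its change was 0.03 (adjusted p = 0.73). The AZD5153 libraries at 24 h, the DMSO libraries at 48 h and the AZD5153 libraries at 48 h thus overlapped with one another, and the DMSO libraries at 24 h were above all of them.

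*MACROH2A2* (ENSG00000099284, chr10:70052544-70112282, plus strand) was the least abundant of the 8 genes and showed the largest decrease. At 24 h it had normalized counts of 110.5, 56.9 and 90.0 in DMSO (80 to 101 reads) and 28.2, 10.2 and 13.5 in AZD5153 (10 to 21 reads). The 48-h libraries had 77.5, 93.1 and 83.1 in DMSO (77 to 105 reads) and 18.2, 27.2 and 12.8 in AZD5153 (15 to 25 reads). No AZD5153 library reached the lowest DMSO library. The log2 fold change was −2.32 at 24 h (SE 0.358, adjusted p = 2.9e-05) and −2.12 at 48 h (SE 0.358, adjusted p = 7e-05), and these fitted values depend on the pseudocount, with −1.83 and −1.71 at a pseudocount of 10. The effects at the 2 times differed by 0.19 (95% confidence interval −0.88 to 1.27), which was not called. Per kilobase of canonical transcript, *MACROH2A2* supplied 2.24% ± 0.583 of the macroH2A level in DMSO and 0.594% ± 0.338 in AZD5153 at 24 h, and 2.87% ± 0.260 and 0.653% ± 0.279 at 48 h. The DMSO share at 24 h was 1.99% without the first replicate. The log2 ratio of *MACROH2A2* to *MACROH2A1* was lower with AZD5153 by −2.15 in the mean of both times (exact permutation test as above, p = 0.005, the smallest it can give, and 0.015 adjusted over the 3 pairs). The protein-coding *AIFM2* shares 6.58% of the *MACROH2A2* exon bases on the opposite strand. It had a mean of 598 normalized counts and was lower by 0.34 at 24 h and 0.39 at 48 h. The annotation and strand setting of the counting are not given. Reads in the shared bases could thus have been added to the few of *MACROH2A2* or lost from them.

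Time in culture changed the vehicle levels. Between 24 and 48 h in DMSO, 5 of 8 genes fell and none rose, where 35.7% of all genes were called in either direction and 19.3% were lower. Those that fell were *H3-3A*, *H3-3B*, *H2AZ1* (−0.29, adjusted p = 0.0098), *H2AZ2* (−0.26, adjusted p = 0.0014) and *MACROH2A1*. The call of *H2AZ1* was lost without the second DMSO replicate at 24 h (−0.23) or without the second at 48 h (−0.25). *H1-10* had a value of 0.65 in the other direction that did not pass (adjusted p = 0.058) and was 0.18 (adjusted p = 0.083) without the first DMSO replicate at 24 h, and *MACROH2A2* one of 0.03. In AZD5153, 2 of 8 genes fell with time, *H3-3B* and *H2AZ1* (−0.31, adjusted p = 0.0081), where 29.7% of all genes were called and 13.8% were lower. The 3 libraries did not overlap between times for 46.5% of all genes in DMSO, among them *H3-3A*, *H3-3B*, *H2AZ2* and *MACROH2A1*, and for 47.2% in AZD5153, among them *H3-3A*, *H3-3B* and *H2AZ1*.

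**Figure D3:**
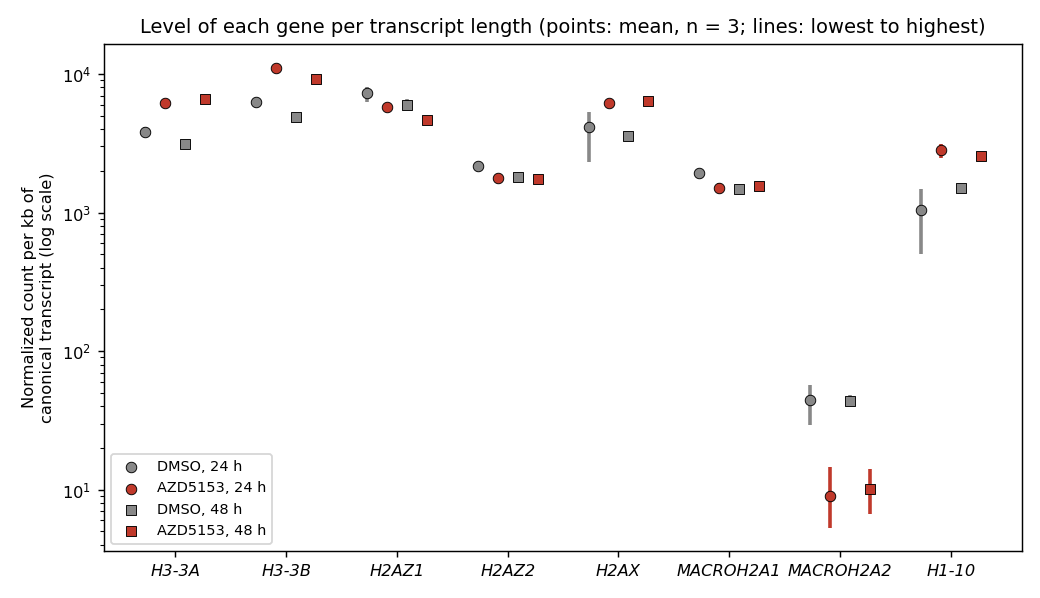
Normalized count per kilobase of canonical transcript for each gene on a log scale, with the mean (points) and the lowest to highest of 3 libraries (lines) in each group; circles are 24 h and squares 48 h, gray is DMSO and red AZD5153. *MACROH2A2* lies at 8.95 to 44.4, and the group means of the other genes between 1052 and 11070.

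Compared per kilobase of canonical transcript, *H2AZ1* had the highest level of the 8 in DMSO, with 7357 ± 931 at 24 h and 5992 ± 554 at 48 h. *H3-3B* came next in DMSO with 6279 ± 110.4 and 4880 ± 154, and its 24-h libraries (6166 to 6387) overlapped those of *H2AZ1* (6292 to 8011). In AZD5153 *H3-3B* was the highest, with 11070 ± 211 and 9208 ± 154, and *H3-3A* (6225 ± 194), *H2AX* (6137 ± 272) and *H2AZ1* (5821 ± 261) followed at 24 h with overlapping libraries between neighbors. *MACROH2A1* and *H2AZ2* lay between 1480 and 2183 in every group, and *H1-10* between 1052 and 2824. The order depends on the transcript model, since with the union of all annotated exons as length *H2AX* was the highest in all 4 groups, while *MACROH2A2* was the lowest under both.

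The chaperones and kinases that act on these histones were taken as lists, and their counts stand beside the 68.5% and 67% of all genes called at 24 and 48 h. The lists were chosen with earlier results of these data known, so their counts and medians are descriptions and no independent test. Of 7 genes for H3.3 deposition, 4 rose and 2 fell at 24 h and 3 rose and 2 fell at 48 h (list medians 0.21 and 0.17), so 6 of 7 and 5 of 7 were called. *CABIN1*, a subunit of the HIRA complex, rose from 922 ± 81.9 to 1672 ± 92.2 at 24 h and from 997.5 ± 41.5 to 2066 ± 51.4 at 48 h (log2 fold changes 0.86 and 1.05). *DAXX*, the chaperone that acts with ATRX, fell from 1015 ± 66.6 to 494 ± 7.17 and from 977 ± 84.5 to 573.5 ± 21.3 (−1.04 and −0.77). These genes do not stand for their complexes. *HIRA* itself was at 0.06 at 24 h (not called) and fell by 0.39 at 48 h, and *ATRX* rose by 0.21 and 0.38. *UBN1* rose by 0.74 and 0.73, and *UBN2* rose by 0.59 at 24 h and was at −0.11 at 48 h (not called). *ASF1A* fell by 0.25 at 24 h and was at 0.17 at 48 h (not called). Of 11 genes for H2A.Z exchange, 3 rose and 4 fell at 24 h and 1 rose and 6 fell at 48 h, 7 of 11 called at each time and thus near the background. The largest decrease was that of *ANP32E*, which removes H2A.Z from nucleosomes, from 5544 ± 303 to 1738 ± 227 and from 4054 ± 214 to 1398 ± 54.7 (−1.68 and −1.54, adjusted p = 2.3e-11 and 6.5e-11).

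Of 7 chaperones that work behind the replication fork, all 7 fell at 24 h and 6 at 48 h, where 34.6% and 33.9% of all genes were lower, with list medians of −0.87 and −0.55, beside all-gene medians of 0.000 and 0.001. This list too was chosen with earlier results known, so its count and medians do not test the background. The exception at 48 h, *CHAF1B*, a further subunit of CAF-1 that is named here as the remaining gene, had a value of 0.13 (adjusted p = 0.11). *MMS22L*, which acts at stalled forks, fell from 1190 ± 96.2 to 327 ± 22.6 at 24 h (−1.86), *CHAF1A*, the large subunit of CAF-1, from 1772 ± 121 to 533 ± 46.0 (−1.73), and *ASF1B*, an H3-H4 chaperone, from 1141 ± 70.1 to 543 ± 72.2 (−1.08). At 48 h their log2 fold changes were −0.76, −1.31 and −0.46. Among 6 transcription-coupled and H2A-H2B chaperones, 2 rose and 4 fell at 24 h and 3 rose and 2 fell at 48 h. *SSRP1*, a subunit of FACT, fell by 1.00 and 0.88. The other subunit, *SUPT16H*, fell by 0.25 at 24 h and rose by 0.20 at 48 h. Of 8 kinases and readers of H2AX, 1 rose and 4 fell at 24 h and 3 rose and 2 fell at 48 h, so 5 of 8 were called at each time, again near the background. *MDC1*, which binds phosphorylated H2AX, fell from 566 ± 20.1 to 238 ± 14.9 and from 492 ± 18.5 to 212 ± 15.7 (−1.25 and −1.21), while *H2AX* itself rose.

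**Figure D4:**
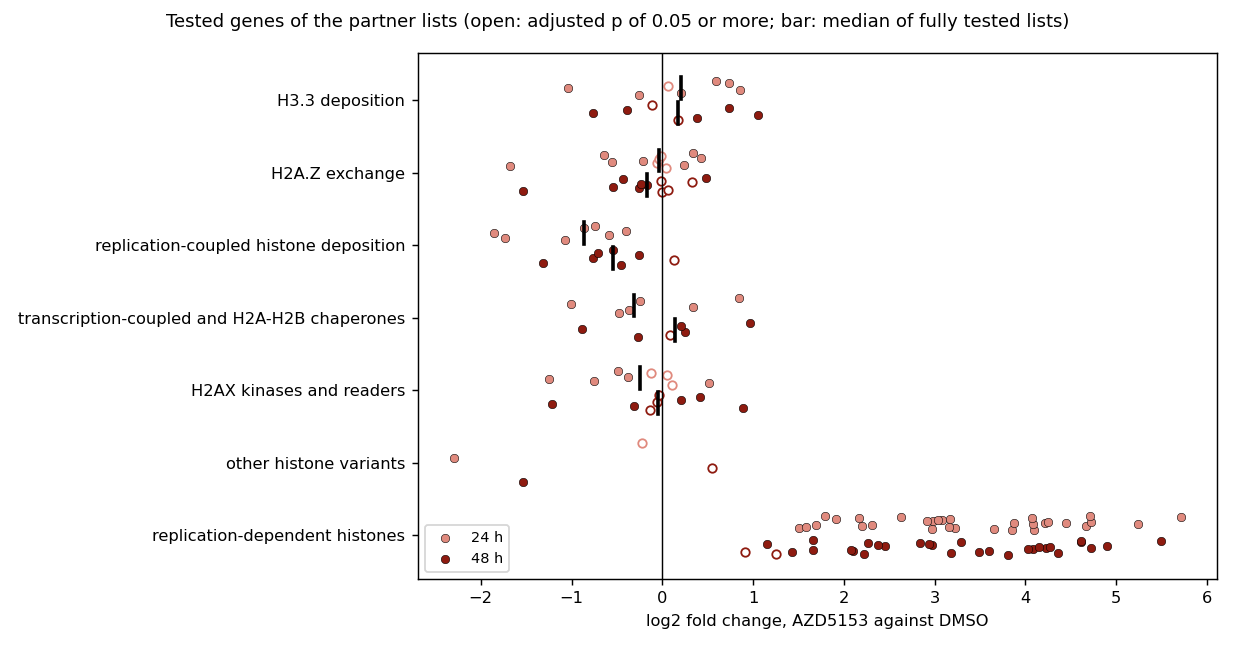
Log2 fold change of AZD5153 against DMSO for every tested gene of each list at 24 h (light) and 48 h (dark), with the median as a bar for the lists of which every gene was tested; open points did not pass the test. The genes of replication-coupled deposition lie left of 0 except 1 open point at 48 h, and the 31 replication-dependent histone genes lie right of it, 10 of which passed the minimum only through the AZD5153 libraries.

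Other histone genes gave a frame for these values. Of 12 further variants, 2 averaged 10 or more normalized counts and were tested. *CENPA*, the H3 variant of centromeres, fell from 523 ± 16.6 to 106.6 ± 14.2 at 24 h and from 476 ± 18.8 to 164.6 ± 14.7 at 48 h (−2.29 and −1.53, adjusted p = 4.6e-11 and 5.7e-09). *H3-5*, an H3.3-like gene with 6.87 to 17.5 normalized counts per group mean, had values of −0.22 and 0.55 that did not pass.

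Of 66 replication-dependent histone genes listed, 63 were in the table and 31 passed the minimum mean of 10 normalized counts. In 10 of these 31 the mean of the DMSO libraries was under 10, so they passed only through AZD5153 and had to be higher there. The other 21 were all called higher at both times, with log2 fold changes of 1.58 to 5.24 at 24 h and 1.15 to 4.90 at 48 h, where 33.9% and 33.1% of all genes were called higher. As with the other lists, earlier results were known when it was chosen. *H1-2* rose from 194 ± 22 to 2819 ± 239 and from 316 ± 17.2 to 4448 ± 88.9, and *H2BC21* from 207 ± 7.68 to 3518 ± 62.3 and from 345 ± 40.7 to 5617 ± 174. *H1-4*, also named by rule, is among the 10 that passed only through AZD5153 and is given no further value. The other genes named by rule were *H2AC6*, *H2AC11*, *H2BC5*, *H3C6*, *H3C10*, *H4C8* and *H4C9*, whose log2 fold changes ranged from 1.80 (*H4C9*) to 4.72 (*H4C8*) at 24 h and from 1.15 (*H3C6*) to 4.73 (*H2BC5*) at 48 h.

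Over the 12 libraries, the genes whose log2 level followed each histone gene most closely, among 10851 candidates whose mean reached 100 normalized counts, were *ZDHHC16* (Pearson's r = 0.998) and *WWC3* (0.996) for *H3-3A* and *ODC1* (0.999) and *ATP1B3* (0.996) for *H3-3B*. They were *SFPQ* (0.983) and *NUDC* (0.965) for *H2AZ1* and *DHX9* (0.961) and *TSN* (0.952) for *H2AZ2*. For *H2AX* they were *SCRIB* (0.975) and *ARHGDIA* (0.975), and for *H1-10* *APC2* (0.991) and *NDUFA3* (0.989). For *MACROH2A1* they were *SNU13* (0.964) and *WDR82* (0.942), and for *MACROH2A2* *PTBP2* (0.969) and *SHC3* (0.968). The libraries share treatment and time, so any genes with the same group pattern have high values. *H3-3A* and *H3-3B* had r = 0.95 over the libraries and r = 0.13 for deviations from the group means.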

How the data were processed

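RNA-Seq libraries of SF8628 cells were made by the authors with RNeasy and NEBNext Ultra II RNA kits and sequenced as 150-bp paired ends. The authors aligned reads to hg38 with STAR, counted them per gene with HTSeq-count and scaled the counts with DESeq2. Versions, annotation and strand setting are not given in the sources used here. The deposited values are a signal, normalized counts, namely counts divided by a size factor per library. Whole reads were recovered from them (100% of values within 0.01 of a whole number). The deposited table also holds the mean level, log2 fold change, standard error, test statistic, p-value and adjusted p-value of the authors' comparison, and none of these was used. The H3K27ac CUT&RUN samples were not analysed here.

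The 15599 of 60664 genes whose mean was 10 normalized counts or more were tested as log2(normalized count + 1) with limma 3.58.1 (lmFit, eBayes with trend) in R 4.3.3. The 4 groups entered 1 fit, with Benjamini-Hochberg adjustment at 0.05. Replicate pairs differed by more than sampling noise (chi-square per degree of freedom of at least 2.12). No source says that replicates were separate cultures, so p-values measure the spread between these samples. Replicate numbers did not pair samples (18 correlations of deviations, −0.151 to 0.0363). Count models on the recovered reads (edgeR 4.0.16, DESeq2 1.42.0), other pseudocounts, minimums, scalings and fits, and leaving out each library were tried. The steps were tested on simulated data. Positions are from GENCODE 44 on GRCh38. Named were all 8 genes, called list genes with a log2 fold change of at least 1 (up to 3 per list and direction), tested variants, the 2 most abundant genes of each replication-dependent class and the 2 genes most correlated with each histone gene. Overlapping genes, *H3P6*, the other genes of the H3.3 deposition list, *CHAF1B* and *SUPT16H* were also named. The genes and lists were chosen with earlier results of these data known. A further histone gene of the lists is not reported here. Ratios within 3 gene pairs were compared by exact permutation, a test that was not in the initial design, and their shares without the first DMSO replicate at 24 h were added after seeing the data.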

Additional observations from a re-analysis of the deposited data

Results flagged for a closer look

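For 3 of the 8 genes the effect of AZD5153 differed between 24 and 48 h by the treatment by time term of limma, which was called for 24.5% of all genes tested. *H3-3A* rose more at 48 h, by 0.35 on the log2 scale (adjusted p = 0.0049, past the threshold in all 26 alternatives). *MACROH2A1* was lower with AZD5153 at 24 h and overlapped DMSO at 48 h, a difference of 0.41 (adjusted p = 0.0042, past the threshold in all 25 alternatives). *H2AZ2* had the same pattern with a difference of 0.26 (adjusted p = 0.022), which passed in 16 of 25 alternatives. In each of the 3 genes the DMSO level fell between 24 and 48 h, while the change in AZD5153 was 0.08 for *H3-3A*, 0.03 for *MACROH2A1* and −0.004 for *H2AZ2*, none of them called.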

How the results depend on the processing

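For the 8 genes in 5 comparisons, 784 of 840 alternative values kept direction and side of the threshold, 17 lost a call, 13 gained it and 26, none of them called in the reported fit, changed sign. For the list genes named by rule, 790 of 792 did. The replicate number as a block, which the correlations did not bear out, left the counts of genes called at 8, 6, 3, 5 and 2. Under scaling to 7 stably expressed genes, 1 gene fell with time in AZD5153 (*H3-3B*) instead of 2, *H2AZ1* had a treatment by time term of 0.053 and *H2AZ2* a change with time in AZD5153 of 0.081. With equal totals, *MACROH2A1* was at −0.105 at 48 h and the last value at 0.001, and with quantile normalization *MACROH2A1* was at −0.061 at 48 h and *H2AX* at 0.012 and *MACROH2A2* at −0.201 for time in DMSO. *MACROH2A2* was there at −0.004 with DESeq2 and −0.025 with the GC trend removed. The cause of these changes was not tested.

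Equal totals shifted the median of all genes by −0.121 at 24 h and −0.168 at 48 h and placed 37.4% of calls at 48 h above 0, against 49.4%. For the treatment by time term the share above 0 was 58.9%, 48.2% with equal totals and 70.8% with the 7 genes; for time in DMSO it was 45.8% and 56.2% with equal totals; and for time in AZD5153 it was 53.4% and 71.3% with the 7 genes.

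Leaving out libraries in turn gave 2 to 5 genes with a called treatment by time term (5 without the first DMSO replicate at 24 h, 4 of them above 0). The ranges were −0.095 to 0.005 for *H2AZ2* at 48 h, −0.085 to 0.089 (*H2AZ1*), −0.039 to 0.560 (*H2AX*) and −0.096 to 0.592 (*MACROH2A2*) for the treatment by time term, −0.492 to 0.107 (*H2AX*) and −0.240 to 0.232 (*MACROH2A2*) for time in DMSO, −0.052 to 0.048 (*H2AZ2*), −0.010 to 0.092 (*MACROH2A1*) and −0.069 to 0.618 (*MACROH2A2*) for time in AZD5153, and −0.582 to 0.160 for *H3-5* at 24 h. For *H1-10*, time in DMSO was 0.184 without DMSO replicate 1 at 24 h and passed without DMSO replicate 2 (0.803) or 3 (0.963) at 24 h, and its treatment by time term passed at −1.104 without replicate 3. Depth limits *MACROH2A2*, with 10 to 25 reads per AZD5153 library. Group sizes of 3 limit all differences near the threshold.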
